A study of Mus musculus with 12 samples.

Results

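Transcripts of the colony-stimulating factors CSF1 (M-CSF) and GM-CSF and of their receptors were followed in 4T1 tumors of mice. The 7 genes were chosen by name from the expression table: Csf1r, Csf1, Il34, Csf2, Csf2ra, Csf2rb and Csf2rb2, out of 55401 genes in all. All 7 passed the filter on low values, as did 15504 genes of the whole table. 4T1 is a mammary carcinoma line derived from BALB/c mice, and the tumors grew in the mammary gland of young adult BALB/c mice. The 12 libraries came from 4 groups of 3 tumors. Control mice received an isotype protein (IgG1-Fc), IL-10-Fc mice recombinant IL10-Fc protein, aCSF1R mice a CSF1R antibody, and BF10 mice the IL10/CSF1R (BF10) fusion protein, in which the CSF1R antibody carries IL-10. Dosing began at a tumor volume of 100 mm3, and the sample labels give 6 doses where the design text of the series gives 4. Whole tumors were sequenced, so tumor cells and every host cell in them contribute. All libraries come from 1 tumor cell line in 1 mouse strain, and the time of harvest is not stated in the labels.

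CSF1R is a receptor tyrosine kinase of monocytes and macrophages. CSF1 and IL-34 are its ligands, and signalling through it keeps many tissue and tumor macrophages alive. GM-CSF, encoded by Csf2, binds a separate receptor made of a specific alpha chain (Csf2ra) and a signalling beta chain. In mice the beta chain exists in 2 forms: Csf2rb encodes the chain shared by the GM-CSF, IL-5 and IL-3 receptors, and its neighbour Csf2rb2 encodes a beta chain used by the IL-3 receptor alone. 4T1 tumors are known for a large myeloid infiltrate. The antibody acts on the CSF1R protein, so the Csf1r transcript does not check whether an animal received it.

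On GRCm38 the members lie apart except for the beta chains. Csf1 lies on chromosome 3 at 107741048 to 107760469 on the minus strand, Il34 on chromosome 8 at 110741829 to 110805924 on the minus strand and Csf2 on chromosome 11 at 54247271 to 54249667 on the minus strand. Csf2ra lies on chromosome 19 at 61223957 to 61228429 on the minus strand. Csf2rb occupies chromosome 15 at 78325752 to 78353847 on the plus strand and Csf2rb2 the neighbouring stretch at 78282507 to 78305721 on the minus strand, so they run away from each other without overlapping.

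The beta chains are near-identical copies, which limits how well their reads can be assigned. Their coding sequences, taken from GENCODE M21, are 2691 and 2637 bases long. They were identical at 95.2% of 2631 aligned bases. Of all stretches of 75 bases in their transcripts, 518 of 5194 (9.97%) of Csf2rb and 518 of 4739 (10.9%) of Csf2rb2 also occurred in the other gene. A window of 150 coding bases, from base 2083 to base 2232 of both, is shown because a read inside it cannot be told apart.
Csf2rb and Csf2rb2, identical window: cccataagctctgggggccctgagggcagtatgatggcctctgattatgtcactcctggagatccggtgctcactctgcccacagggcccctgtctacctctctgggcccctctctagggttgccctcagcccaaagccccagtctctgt
The window with the most differences is shown because reads there separate the copies. It starts at coding base 300 of Csf2rb and 303 of Csf2rb2, holds 25 differences in 150 bases, and capitals mark the bases that differ.
Csf2rb, variable window: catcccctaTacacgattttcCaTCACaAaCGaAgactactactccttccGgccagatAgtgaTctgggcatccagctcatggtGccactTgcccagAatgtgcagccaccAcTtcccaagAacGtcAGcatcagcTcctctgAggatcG
Csf2rb2, variable window: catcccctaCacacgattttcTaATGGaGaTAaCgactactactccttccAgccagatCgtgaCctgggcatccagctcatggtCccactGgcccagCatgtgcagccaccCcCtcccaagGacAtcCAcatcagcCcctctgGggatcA
Values of either beta chain therefore carry an uncertainty in the assignment of reads.

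Promoters in the RefSeq set for GRCm38.p6 were at hand for 4 of the 7 members (Csf1, Csf2, Csf2ra and Csf2rb2), each from 250 bases before to 50 bases after the start. They were searched on both strands for GAGGAA, a core recognised by PU.1, the myeloid transcription factor encoded by Spi1. The motif occurred at 2 places in the Csf2ra promoter and at 2 in that of Csf2rb2, and at 0 in those of Csf1 and Csf2. The Csf2 window, 54249850 to 54250149, lies wholly upstream of the gene as placed above, which begins at 54249667 on its strand. Its 0 therefore does not cover the bases around that start. Of all 32851 promoters in the set, 28.3% hold it on either strand. The promoters of the GM-CSF receptor alpha chain, of the IL-3 beta chain and of the ligand CSF1 are shown as examples with and without the motif, with the motif or its reverse complement in capitals.
Csf2ra, chr19:61228369-61228668, minus strand: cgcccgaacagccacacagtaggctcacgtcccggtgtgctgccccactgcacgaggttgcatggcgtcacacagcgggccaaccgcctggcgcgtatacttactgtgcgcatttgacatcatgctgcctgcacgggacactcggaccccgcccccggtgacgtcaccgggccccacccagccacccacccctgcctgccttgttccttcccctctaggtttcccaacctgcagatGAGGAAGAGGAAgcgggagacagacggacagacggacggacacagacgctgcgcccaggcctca
Csf2rb2, chr15:78305672-78305971, minus strand: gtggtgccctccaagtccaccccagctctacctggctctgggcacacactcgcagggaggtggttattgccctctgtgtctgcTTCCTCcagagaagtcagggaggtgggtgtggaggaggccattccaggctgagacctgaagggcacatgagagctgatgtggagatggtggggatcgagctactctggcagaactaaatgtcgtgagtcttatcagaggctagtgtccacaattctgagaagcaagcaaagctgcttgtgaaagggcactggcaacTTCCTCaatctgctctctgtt
Csf1, chr3:107760420-107760719, minus strand: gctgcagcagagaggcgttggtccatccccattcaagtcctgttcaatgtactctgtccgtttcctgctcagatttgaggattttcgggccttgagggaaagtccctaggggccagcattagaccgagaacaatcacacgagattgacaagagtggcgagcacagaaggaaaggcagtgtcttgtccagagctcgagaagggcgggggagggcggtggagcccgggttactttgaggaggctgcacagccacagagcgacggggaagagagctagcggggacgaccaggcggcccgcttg
These matches are letters in a window and were not tested for binding.

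The 12 libraries fell into sets that follow no treatment. In 7 libraries the FPKM values summed to between 609695 and 648413 and mitochondrial transcripts took 3.14% to 3.96% of the total. In the other 5 the sums ran from 782919 to 921581 and the mitochondrial share from 5.90% to 9.26%. The higher-sum set holds control replicates 4 and 7 but only 1 library of every other group: IL-10-Fc replicate 7, aCSF1R replicate 8 and BF10 replicate 6. Estimated depth was similar throughout, at 30900000 to 36200000 fragments. No label explains the sets, and 9180 of 15504 genes (59.2%) differed between them by 1.5-fold or more at an adjusted p under 0.05 (limma). The sets were drawn from sums of these same values, so the count describes them and does not test them. Of the members, 6 were lower in the higher-sum set, by 2.19 (Csf1), 2.03 (Csf1r), 1.78 (Csf2ra), 1.72 (Csf2rb2), 1.58 (Csf2rb) and 0.93 (Il34) on the log2 scale, where the median of all genes fell by 0.68. Csf2 was the exception, with a difference of 0.39 (limma adjusted p = 0.187). Because the control group holds 2 of these libraries and the others 1 each, each comparison below is given without and with the library set as a term of the fit. Levels are TPM, shares of the library total per 1000000 after division by transcript length.

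**Figure D1:**
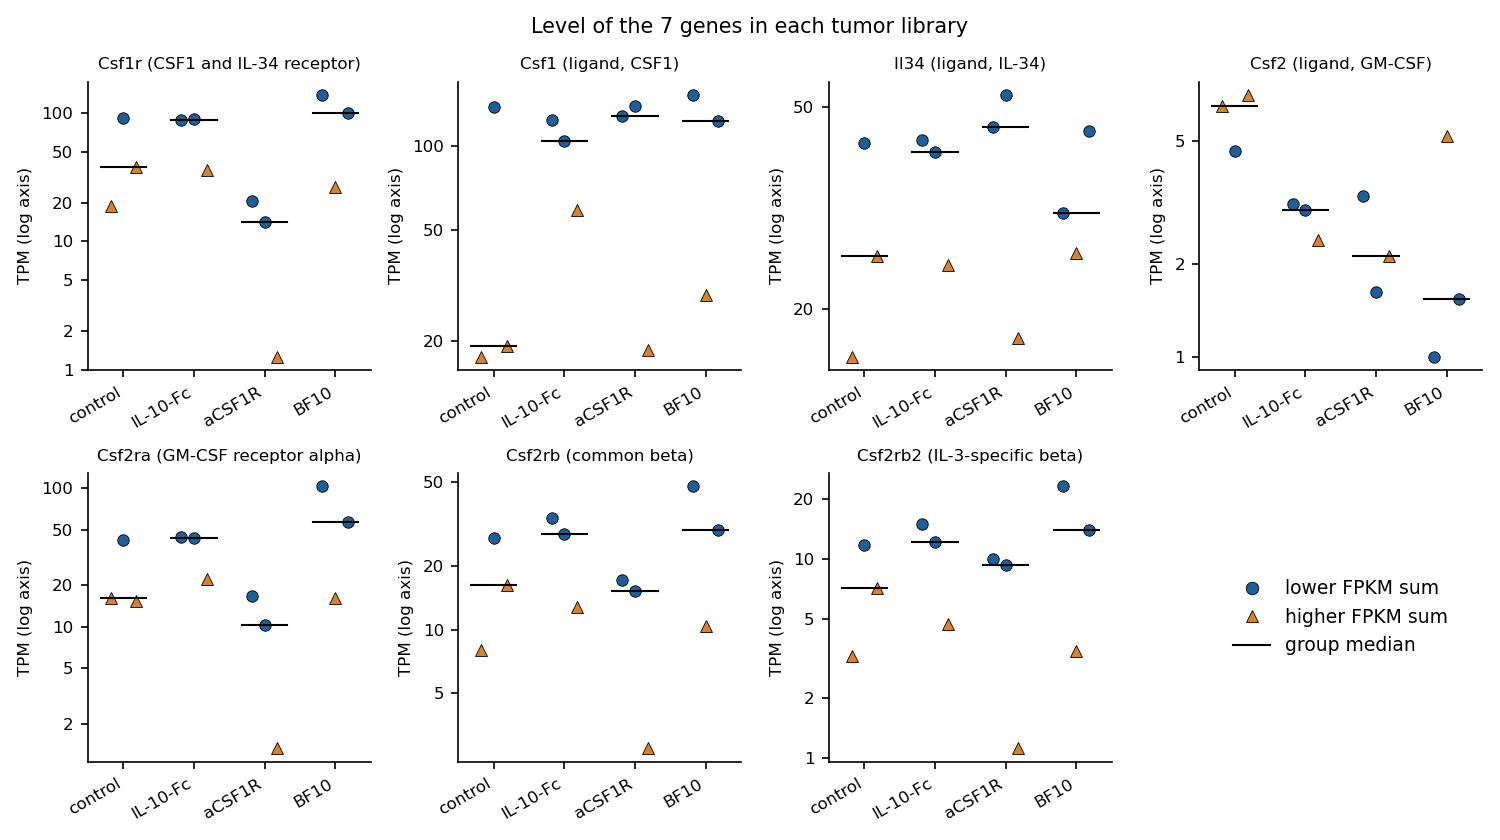
Level of each of the 7 genes in each of the 12 tumors, in TPM on a log axis, by treatment group. Each point is 1 library, with circles for the lower and triangles for the higher FPKM sums, and the lines mark group medians. Csf1r and Csf2ra sit lowest in the aCSF1R group within either library set, while Csf1 and Il34 separate by library set.

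Csf1r, the receptor itself, was lowest in the tumors treated with aCSF1R. The gene spans bases 61100598 to 61132149 of chromosome 18 (GRCm38, plus strand) in 24 exon blocks. Its level was 18.8, 92.7 and 38.4 TPM in control replicates 4, 5 and 7, and 88.8, 89.8 and 36.4 TPM in IL-10-Fc replicates 2, 4 and 7. It was 20.6, 14.1 and 1.26 TPM in aCSF1R replicates 4, 6 and 8, and 140, 26.7 and 101 TPM in BF10 replicates 3, 6 and 7. All 3 aCSF1R tumors lay below every IL-10-Fc and BF10 tumor, and they overlapped the controls only through control replicate 4, a higher-sum library. The group means were 11.99 ± 9.85 (aCSF1R), 49.9 ± 38.3 (control), 71.7 ± 30.6 (IL-10-Fc) and 89.2 ± 57.5 TPM (BF10, SD, n = 3 each). The last 3 of these do not differ beyond their spread.

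Without the library set, the change of Csf1r in aCSF1R tumors against control was -2.21 ± 0.91 on the log2 scale (SE, limma, unadjusted p = 0.0340, adjusted p = 0.893). Once the library set entered the fit it was -2.89 ± 0.36, or 7.40-fold lower (95% interval of the log2 change -3.69 to -2.09, limma adjusted p = 0.00131). It was -2.37 among the lower-sum libraries and -3.63 among the higher-sum libraries, so the direction held within both. Against aCSF1R, Csf1r was 8.15-fold higher in BF10 tumors (log2 3.03 ± 0.35, limma adjusted p = 5.75e-04 with the library set, 0.405 without it). It was 7.45-fold higher in IL-10-Fc tumors (2.90 ± 0.35, limma adjusted p = 0.00106 with the set, 0.600 without). These 3 differences share the aCSF1R libraries and are not independent of each other. In each of them Csf1r stayed past the threshold in 12 of 12 fits that left out a library with the set as a term. In whole tumors, fewer cells of a type and less RNA per cell cannot be told apart.

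BF10 also holds a CSF1R antibody, and no lower Csf1r was called in its tumors. Against control, the log2 change with the library set as a term was 0.14 for BF10 (95% interval -0.66 to 0.94) and 0.0096 for IL-10-Fc (-0.79 to 0.81). Between BF10 and IL-10-Fc it was 0.13 (-0.65 to 0.90). No change of Csf1r was called in any of the 3, which does not show that the levels were equal.

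The ligands of CSF1R did not follow the receptor. Csf1, which encodes the main ligand, measured 17.5, 139 and 19.2 TPM in control replicates 4, 5 and 7 and 124, 105 and 59.1 TPM in IL-10-Fc replicates 2, 4 and 7. It measured 129, 139 and 18.6 TPM in aCSF1R replicates 4, 6 and 8 and 153, 29.2 and 123 TPM in BF10 replicates 3, 6 and 7. The groups overlapped, and the 5 lowest values were those of the 5 higher-sum libraries. The group means were 58.5 ± 69.5 (control), 95.9 ± 33.3 (IL-10-Fc), 95.4 ± 66.8 (aCSF1R) and 102 ± 64.8 TPM (BF10, SD, n = 3 each). The log2 change against control was 0.92 in aCSF1R, 1.16 in BF10 and 1.31 in IL-10-Fc tumors without the library set. With the set as a term the changes were 0.19 (95% interval -0.57 to 0.96), 0.43 (-0.34 to 1.19) and 0.58 (-0.19 to 1.34), and none was called. For IL-10-Fc the lower-sum libraries gave -0.28 and the higher-sum libraries 1.64, which differ in sign.

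Il34, the second ligand, was lower and steadier. It measured 16.1, 42.5 and 25.5 TPM in the controls, 43.0, 40.7 and 24.4 TPM with IL-10-Fc, 45.6, 52.8 and 17.5 TPM with aCSF1R, and 30.9, 25.8 and 44.8 TPM with BF10, in the library order above. The groups overlapped throughout. Beside the library set the log2 changes against control were 0.10 for aCSF1R (95% interval -0.42 to 0.63), 0.019 for BF10 (-0.51 to 0.55) and 0.10 for IL-10-Fc (-0.42 to 0.63). No comparison of Il34 was called.

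Csf2, which encodes GM-CSF, was the least abundant member and the one that stood highest in the controls. It measured 6.52, 4.65 and 7.08 TPM in control replicates 4, 5 and 7, and 3.14, 2.99 and 2.40 TPM in IL-10-Fc replicates 2, 4 and 7. It measured 3.33, 1.62 and 2.13 TPM in aCSF1R replicates 4, 6 and 8, and 1.00, 5.22 and 1.54 TPM in BF10 replicates 3, 6 and 7. Every IL-10-Fc and aCSF1R tumor lay below every control, and BF10 overlapped the controls through replicate 6 alone. The group means were 6.08 ± 1.27 (control), 2.84 ± 0.391 (IL-10-Fc), 2.36 ± 0.878 (aCSF1R) and 2.59 ± 2.30 TPM (BF10, SD, n = 3 each). The log2 change against control was -1.09 ± 0.40 in aCSF1R tumors (limma unadjusted p = 0.0211, adjusted p = 0.893), -1.15 ± 0.40 in BF10 tumors (0.0164, 0.788) and -0.87 ± 0.40 in IL-10-Fc tumors (0.0549, 0.738). After the set was added the changes were -0.96 (95% interval -1.74 to -0.19), -1.02 (-1.79 to -0.24) and -0.74 (-1.52 to 0.035), with adjusted p of 0.396, 0.993 and 0.942 (limma). None passed the adjusted threshold, and all 3 use the same control tumors. The values rest on few fragments, an estimated 17 to 171 per library with a median of 54. Among the treated groups Csf2 differed by -0.057 (BF10) and 0.22 (IL-10-Fc) from aCSF1R and by -0.28 between BF10 and IL-10-Fc, all log2 and none called.

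Csf2ra, the GM-CSF-specific alpha chain, followed Csf1r. It measured 16.1, 42.2 and 15.2 TPM in control replicates 4, 5 and 7, and 44.5, 43.1 and 22.0 TPM in IL-10-Fc replicates 2, 4 and 7. It measured 16.5, 10.3 and 1.32 TPM in aCSF1R replicates 4, 6 and 8, and 103, 16.0 and 57.0 TPM in BF10 replicates 3, 6 and 7. The aCSF1R tumors lay below every IL-10-Fc tumor. They overlapped the controls and BF10 only where aCSF1R replicate 4, a lower-sum library, met higher-sum libraries of those groups. The group means were 9.38 ± 7.62 (aCSF1R), 24.5 ± 15.4 (control), 36.5 ± 12.6 (IL-10-Fc) and 58.6 ± 43.4 TPM (BF10, SD, n = 3 each).

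With the library set as a term, Csf2ra was 4.47-fold lower in aCSF1R tumors than in controls (log2 -2.16 ± 0.35, 95% interval -2.94 to -1.39, limma adjusted p = 0.00752). The change was -1.62 within the lower-sum and -2.84 within the higher-sum libraries. Without the set it was -1.57 ± 0.82 (limma adjusted p = 0.893). The call against control was lost without aCSF1R replicate 8, where the change was -1.71 (limma adjusted p = 0.0629), and held in the 11 other fits that left out a library. Csf2ra was 6.05-fold higher in BF10 than in aCSF1R tumors (log2 2.60 ± 0.34, limma adjusted p = 0.00135 with the set, 0.469 without). It was 4.64-fold higher in IL-10-Fc than in aCSF1R tumors (2.22 ± 0.34, limma adjusted p = 0.00487 with the set, 0.942 without). Both of these held in 12 of 12 fits with the set that left out a library. Against control, Csf2ra changed by 0.44 in BF10 (95% interval -0.34 to 1.21) and 0.054 in IL-10-Fc tumors (-0.72 to 0.83), and neither was called.

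The beta chains differed less between groups. Csf2rb, the shared signalling chain, measured 8.01, 27.0 and 16.3 TPM in the controls, 33.6, 28.5 and 12.8 TPM with IL-10-Fc, 17.1, 15.2 and 2.75 TPM with aCSF1R, and 47.8, 10.4 and 29.7 TPM with BF10, in the same library order. Csf2rb2, the IL-3 receptor beta chain, measured 3.27, 11.8 and 7.14 TPM, 15.1, 12.2 and 4.70 TPM, 10.05, 9.38 and 1.12 TPM, and 23.3, 3.47 and 14.0 TPM in those groups. The groups overlapped for both genes, and in each group the higher-sum library or libraries were the lowest. In the fit with the library set, Csf2rb was 2.50-fold higher in BF10 than in aCSF1R tumors (log2 1.32 ± 0.30, limma adjusted p = 0.0389), a call that held in 5 of 12 fits that left out a library. It was lost without BF10 replicate 3 (limma adjusted p = 0.186), BF10 replicate 6 (0.102), aCSF1R replicate 6 (0.108), aCSF1R replicate 8 (0.183), control replicate 5 (0.0520) and IL-10-Fc replicates 2 (0.0646) and 4 (0.0566). Csf2rb was 1.19 lower on the log2 scale in aCSF1R tumors than in controls (95% interval of the change -1.86 to -0.52, limma adjusted p = 0.101) and 1.23 higher in IL-10-Fc than in aCSF1R tumors (0.57 to 1.88, limma adjusted p = 0.0705), and neither was called. For Csf2rb2 the corresponding changes were -0.87 against control (limma adjusted p = 0.455), 0.92 for BF10 against aCSF1R (0.271) and 0.77 for IL-10-Fc against aCSF1R (0.464).

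**Figure D2:**
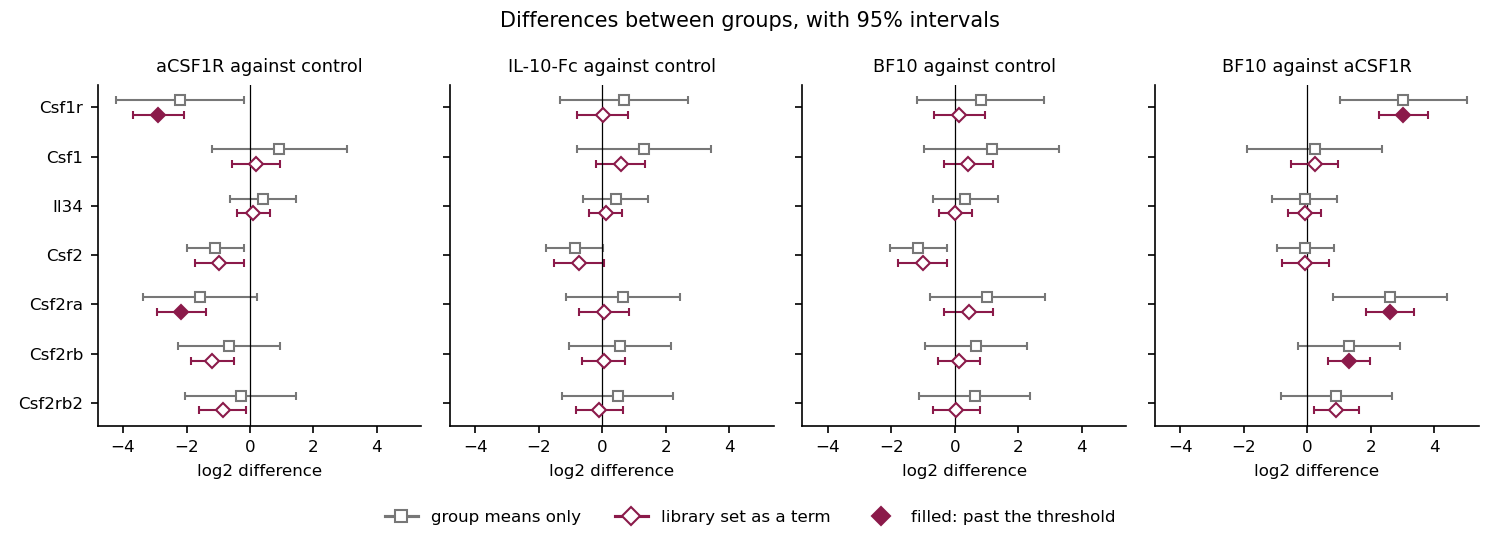
Log2 difference of each gene (x axis) in aCSF1R, IL-10-Fc and BF10 against control and in BF10 against aCSF1R, from the fit with group means only (squares) and the fit with the library set (diamonds, filled past the threshold), with 95% intervals. In the fit with the library set, Csf1r and Csf2ra pass the threshold in both panels with aCSF1R, and Csf2rb passes in BF10 against aCSF1R. No gene passes in the fit with group means only. The intervals of Csf1 and Il34 include 0 in every panel.

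Counted over the 7 members without the library set, 0 were called in each comparison of 2 groups and in the contrast of BF10 with its parts (limma). The members with an unadjusted p under 0.05 numbered 2 in aCSF1R against control, 1 in BF10 against control, 0 in IL-10-Fc against control, 2 in BF10 against aCSF1R, 2 in IL-10-Fc against aCSF1R and 0 in BF10 against IL-10-Fc. Over all 15504 genes the percentages called were 0.568% in aCSF1R against control, 0.0% in BF10 against control, 0.00645% in IL-10-Fc against control, 0.735% in BF10 against aCSF1R, 0.542% in IL-10-Fc against aCSF1R and 0.0% in BF10 against IL-10-Fc. Genes at an unadjusted p under 0.05 (limma) numbered 537, 234, 224, 661, 552 and 42 of 15504 in these comparisons, in the same order. The fit with the library set called more members: 2 in aCSF1R against control (background 2.01%), 0 in BF10 against control (0.00645%), 0 in IL-10-Fc against control (0.0258%), 3 in BF10 against aCSF1R (2.82%), 2 in IL-10-Fc against aCSF1R (2.13%) and 0 in BF10 against IL-10-Fc (0.0%, with 141 genes at an unadjusted p under 0.05). The median change of the members in aCSF1R against control was -0.96 with the set, beside 0.0068 over all genes. Exact two-sided permutation tests of the 42 single differences gave at best p = 0.1, the smallest possible, and 0.84 after adjustment over the 42.

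Whether BF10 differed from the sum of its parts was asked with a contrast that takes the changes of aCSF1R and IL-10-Fc, each against control, from that of BF10. In the fit with the library set Csf1r stood 3.02 ± 0.50 above the sum on the log2 scale (95% interval 1.90 to 4.13, limma adjusted p = 0.0140) and Csf2ra 2.54 ± 0.49 above it (1.46 to 3.63, limma adjusted p = 0.0314). Within the lower-sum libraries the contrast was 2.78 for Csf1r and 2.41 for Csf2ra, and within the higher-sum libraries 3.19 and 2.40. The transcripts were low in aCSF1R tumors and not called lower in BF10 tumors, which is what this contrast measures. In the same contrast 5 of 12 macrophage markers were called higher without the library set and 9 of 12 with it (limma), so the contrast was not particular to these 2 members, and the part of macrophage content in it was not tested. The other 5 members were not called, at 1.283 (Csf2rb), 1.01 (Csf2rb2), 0.68 (Csf2), -0.19 (Il34) and -0.34 (Csf1). Without the set the contrast called 0 members (background 0.29%, limma), and with it 2 (background 1.21%). At an unadjusted p under 0.05 without the set it held 0 members and 377 of 15504 genes (limma). Csf1r stayed past the threshold in 12 of 12 fits that left out a library with the set as a term. Csf2ra stayed in 4 of 12, with limma adjusted p between 0.0145 and 0.0949. The calls lost were those without BF10 replicate 3, aCSF1R replicates 6 and 8, every control replicate, or IL-10-Fc replicates 2 and 4.

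Ratios of 2 members within a library do not depend on the scaling between libraries, and 5 of them were formed after the values had been seen. The ratio of Csf1r to Csf1, receptor to ligand, was 1.07, 0.668 and 2.00 in control replicates 4, 5 and 7, and 0.718, 0.857 and 0.615 in IL-10-Fc replicates 2, 4 and 7. It was 0.160, 0.101 and 0.0678 in aCSF1R replicates 4, 6 and 8, and 0.912, 0.913 and 0.820 in BF10 replicates 3, 6 and 7. The aCSF1R tumors lay below all others. The geometric mean was 0.103 with aCSF1R beside 1.13 in controls, a log2 difference of -3.45 (exact permutation p = 0.1, the smallest possible, 0.5 after adjustment over 30 tests). BF10 replicates 3, 6 and 7, whose Csf1r levels ran from 26.7 to 140 TPM, gave nearly the same ratio.

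The ratio of Csf2ra to Csf2rb, alpha to beta chain, was 0.962, 0.678 and 0.482 in aCSF1R replicates 4, 6 and 8, and 2.15, 1.53 and 1.92 in BF10 replicates 3, 6 and 7. It was 1.32, 1.51 and 1.71 in IL-10-Fc replicates 2, 4 and 7, and 2.01, 1.56 and 0.932 in control replicates 4, 5 and 7. The aCSF1R tumors lay below every IL-10-Fc and BF10 tumor and overlapped the controls through control replicate 7. The log2 difference was -1.07 against control (exact permutation p = 0.2), 1.44 for BF10 against aCSF1R (p = 0.1) and 1.15 for IL-10-Fc against aCSF1R (p = 0.1), the latter 2 being 0.5 after adjustment over the 30 tests. The ratio of Csf2rb to Csf2rb2 ran from 1.62 to 3.01 over all 12 libraries and overlapped between all groups.

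**Figure D3:**
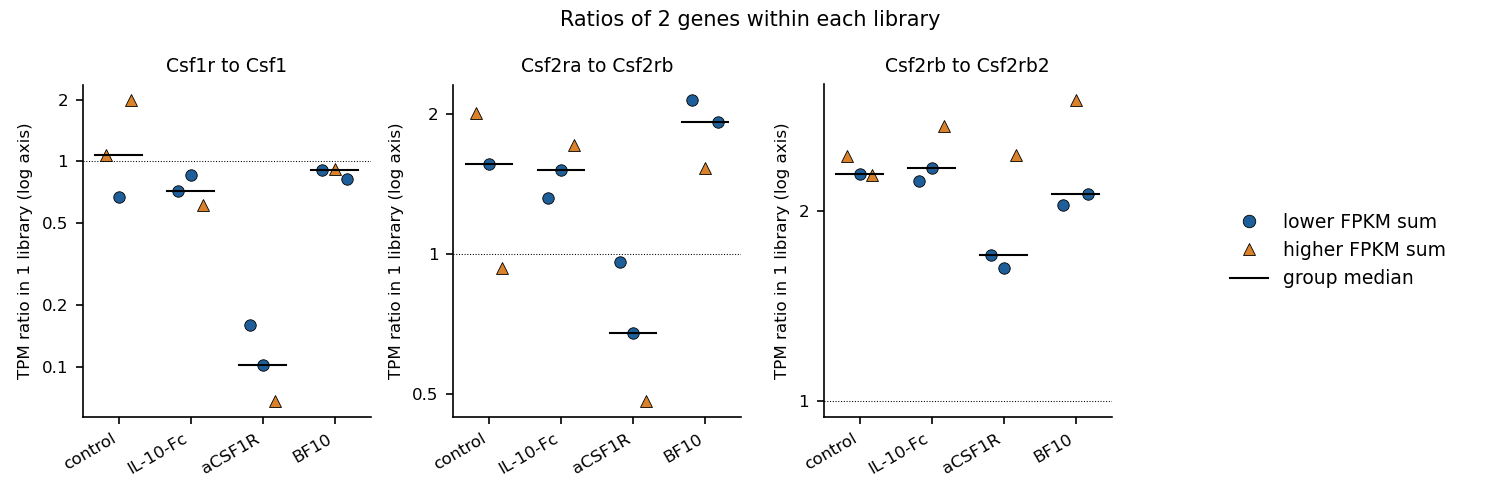
Ratios of the TPM of Csf1r to Csf1, Csf2ra to Csf2rb and Csf2rb to Csf2rb2 in each of the 12 libraries, on log axes, by treatment group. Circles are libraries of lower and triangles of higher FPKM sum, and lines mark group medians. The Csf1r to Csf1 ratio lies between 0.0678 and 0.160 in the aCSF1R tumors and between 0.615 and 2.00 in the 9 others.

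Macrophage markers moved with Csf1r and Csf2ra. The summed level of 12 macrophage markers ran from 2308 to 3458 TPM in controls, 2193 to 3740 TPM with IL-10-Fc, 133 to 927 TPM with aCSF1R and 2512 to 4087 TPM with BF10. Without the library set, 7 of 12 were called lower in aCSF1R tumors than in controls (limma), among them the scavenger receptor Msr1 (log2 change -3.75, adjusted p = 6.40e-05) and the complement chain C1qc (-4.05, adjusted p = 2.12e-04). Beside the set 10 of 12 were called, the exceptions being Mertk and Cd163. Csf1r is itself expressed by macrophages, so its level was also set against the marker sum. Per 1000 TPM of macrophage markers, Csf1r stood at 8.13, 26.8 and 11.9 TPM in the controls, 26.5, 24.0 and 16.6 TPM with IL-10-Fc, 22.3, 24.4 and 9.46 TPM with aCSF1R and 34.2, 10.6 and 34.2 TPM with BF10. On that scale the aCSF1R tumors lay inside the range of the controls, and the higher-sum libraries of each group were lower than its lower-sum libraries. Within the lower-sum libraries 22.3 and 24.4 with aCSF1R stood beside 26.8 in the control, and within the higher-sum libraries 9.46 beside 8.13 and 11.9. The sum is weighted to abundant markers, and Apoe alone averaged 1046 TPM in controls and 377 TPM with aCSF1R. Apoe also ranked among the genes most like Csf1r, so divisor and gene are not independent. Csf2rb stood at 18.5, 26.4 and 20.6 TPM per 1000 with aCSF1R, above the 3.47 to 7.82 of the controls, the 5.85 to 10.01 of IL-10-Fc and the 4.16 to 11.7 of BF10. This was not particular to Csf2rb, as the divisor was lowest in the aCSF1R tumors. Csf1 stood at 139, 241 and 140 with aCSF1R and 5.97 to 40.1 in the controls. Il34 stood at 49.2, 91.5 and 132 beside 6.99 to 12.3, and Csf2rb2 at 10.8, 16.3 and 8.40 beside 1.42 to 3.41. Csf2 overlapped the controls. Csf2ra stood at 17.8, 17.9 and 9.95 TPM per 1000 with aCSF1R and at 6.98, 12.2 and 4.72 in the controls. These groups overlapped across the library sets, while within either set the aCSF1R tumors were higher. The part of macrophage content in the changes of Csf1r and Csf2ra was not tested.

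**Figure D4:**
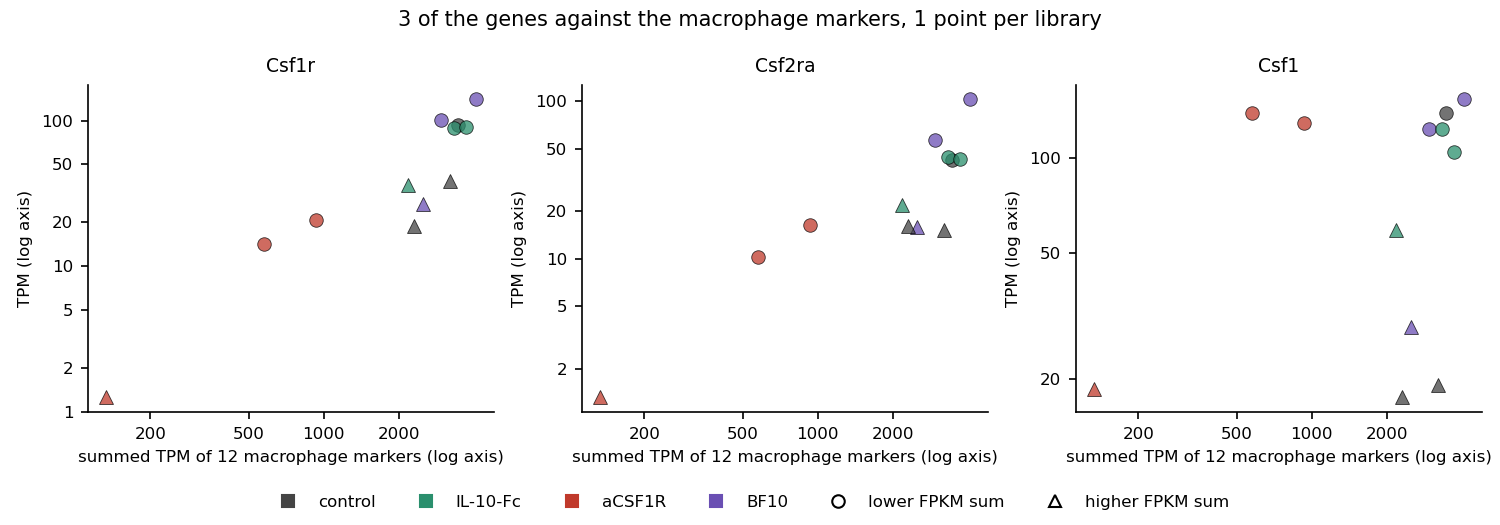
Levels of Csf1r, Csf2ra and Csf1 (y axes) against the summed level of 12 macrophage markers (x axes) in each of the 12 libraries, in TPM on log axes, colored by group with circles for lower and triangles for higher FPKM sums. The aCSF1R tumors have the lowest marker sums, 133 to 927 TPM, with Csf1 at 129 and 139 TPM in the lower-sum libraries among them.

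Markers of the other cell types were counted in the same comparison of aCSF1R with control. Of 6 monocyte markers, 1 was called lower without the library set and 2 with it (summed level 164 to 322 TPM in controls, 96.2 to 193 with aCSF1R). Of 5 tested dendritic cell markers, 0 and 1 were called lower (9.44 to 18.8 and 3.39 to 13.7 TPM). None was called in either fit (limma) among 7 neutrophil markers (971 to 1890 and 514 to 3347 TPM), 6 mast cell and basophil markers (17.7 to 20.5 and 37.7 to 150 TPM), 2 eosinophil markers (1.62 to 2.64 and 2.67 to 3.45 TPM) or 8 T and NK cell markers (25.0 to 36.7 and 22.8 to 31.95 TPM). The same held for 7 fibroblast markers (944 to 3097 and 1059 to 5389 TPM), 5 endothelial markers (38.5 to 87.3 and 32.6 to 105 TPM), 6 epithelial markers (1122 to 2434 and 754 to 2503 TPM) and 2 keratinocyte markers (6.45 to 6.89 and 6.43 to 11.9 TPM). All 6 mast cell and basophil markers had a higher mean with aCSF1R, by a median of 1.08 on the log2 scale. Over all genes the median change was 0.24 without and 0.0068 with the set. The summed level of this list also lay above every control with IL-10-Fc (24.1 to 32.6 TPM) and with BF10 (21.7 to 47.3 TPM). The rise was thus not particular to aCSF1R. The epithelial markers were present in every library, as the label of a breast carcinoma has it.

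Genes that act with CSF1R or regulate it were counted next. Of 21 tested genes for CSF1R signalling and regulators, 1 was called lower against control without the library set and 6 with it, and the median change of the list was 0.10 and -0.40 beside 0.24 and 0.0068 over all genes. Tyrobp, the adaptor DAP12, was called in both fits: it ranged over 323 to 640 TPM in controls, 301 to 494 with IL-10-Fc, 56.5 to 123 with aCSF1R and 302 to 582 with BF10, a log2 change of -2.60 against control without the set (limma adjusted p = 0.00905) and -2.37 with it. Spi1, which encodes PU.1, ranged over 23.2 to 46.7 TPM in controls, 38.4 to 54.2 with IL-10-Fc, 4.47 to 13.9 with aCSF1R and 39.3 to 99.7 with BF10. With the set its change was -2.13 (limma adjusted p = 0.00270). The lipid phosphatase SHIP1 (Inpp5d) changed by -1.48 (limma adjusted p = 0.00813), and Maf and Pik3cd were also called, at -1.31 and -1.17. BF10 exceeded aCSF1R in 2 genes of the list without the set, Tyrobp (2.43, limma adjusted p = 0.0132) and Spi1 (2.62, 0.0205), and in 6 with it. IL-10-Fc exceeded aCSF1R in 1 and 6. Against control, 0 of 21 were called for BF10 or IL-10-Fc in either fit (limma).

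The GM-CSF receptor pathway moved less. Of 18 tested genes for GM-CSF receptor signalling and targets, 0 were called in aCSF1R against control without the library set (limma) and 1 with it. In the fit with the set BF10 exceeded aCSF1R in 3 genes of the list, among them the cytokine Osm (0.97) and the kinase Lyn (0.94), and IL-10-Fc exceeded it in 2, among them Lyn (0.82). Jak2, Stat5a, Stat5b and the feedback inhibitors Cish and Socs3 were not called in any comparison. The median change of the list in aCSF1R against control was 0.10 without and -0.11 with the set, beside 0.24 and 0.0068 over all genes. Ccl17, a chemokine gene that GM-CSF induces in myeloid cells, had the second smallest p of the list there, at -1.14 without the set (limma adjusted p = 0.893). This was not particular to aCSF1R, as its change without the set was -1.28 in IL-10-Fc against control (limma adjusted p = 0.738). Its mean was 9.90 TPM in controls, 2.82 with IL-10-Fc, 3.28 with aCSF1R and 4.14 with BF10.

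Of the beta common and IL-3 relatives, 3 of 6 genes were tested and 0 were called in any comparison in either fit (limma). Csf3, encoding G-CSF, was at 53.9 to 110 TPM in controls and 124 to 320 TPM in aCSF1R tumors, which did not overlap, and its change was 1.43 with the set (limma adjusted p = 0.525). The genes for IL-3 and IL-5 stayed below the filter, with Il3 listed at 0 in 8 of 12 libraries, as did Il5ra. Of 7 tested genes for receptor kinase relatives of CSF1R and their ligands, 0 were called. They were the receptors Kit, Pdgfra and Pdgfrb and the ligands Kitl, Flt3l, Pdgfa and Pdgfb, while Flt3 stayed below the filter. The smallest p in aCSF1R against control without the set were those of Pdgfra (log2 change 0.84, limma unadjusted p = 0.289) and Kit (log2 change 0.64, 0.406). Both had a limma adjusted p of 0.893.

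The genes most like each member over the 12 libraries were ranked by the root mean square difference of mean-centred log2(TPM + 1), a description over libraries that share treatment and library set. For Csf1r they were Pld4 (0.187), Laptm5 (0.247), Apoe (0.345), Cyth4 (0.346) and Tgfbi (0.352), and the nearest other member was Csf2ra (0.387). For Csf2ra they were Mpeg1 (0.219), Ncf4 (0.227) and Cybb (0.260). For Csf2rb they were Pik3cd (0.181), Cd38 (0.182) and Syk (0.182), with Csf2rb2 at 0.204. The 2 beta chains were the closest pair of members. For Csf2rb2 they included Fuca1 (0.203) and Ptpn6 (0.212). The genes nearest to the ligands included Pitpnb (0.139), Yars (0.159) and Kmt5a (0.163) for Csf1, and Acads (0.0391) and Ctxn1 (0.0883) for Il34. Csf2 had no close match, the nearest being Rbp2 (0.333), Gm36172 (0.356) and Rab26os (0.387). Csf1r stood 1.29 from its ligand Csf1 and 0.762 from Csf2rb.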

How the data were processed

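RNA of 12 orthotopic 4T1 tumors, 3 per group, was sequenced from poly(A) libraries. What the authors deposited are FPKM values, fragments per transcript length and sequencing depth, for every gene and library, made on the mouse build GRCm38. The submitters' processing notes name STAR 2.7.5a, RSEM 1.3.3 and DESeq2 1.28.0. The 4 deposited DESeq2 tables hold the authors' own fold changes and p-values and were not used.

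FPKM values were rescaled to a total of 1000000 per library, which gives TPM. A gene was tested when its TPM reached 1 in 3 or more libraries (15504 of 55401). limma 3.58.1 in R 4.3.3 (empirical Bayes with a mean trend) was run on log2(TPM + 1) over all 12 libraries with 8 residual degrees of freedom. The pseudocount of 1 makes fold changes of low genes appear smaller than they are. A gene was called at a Benjamini-Hochberg adjusted p under 0.05, over all tested genes, and a fold change of 1.5 or more. The 95% intervals come from the same fit. This fit, with group means only, was tested on simulated data that held no library sets. The fit with the library set was not tested in this way.

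A second fit held the library set as a term, with the boundary at an FPKM sum of 700000. The other alternatives were a pseudocount of 0.1, FPKM without rescaling, median-of-ratios scaling, no filter, the lower-sum libraries alone, only the groups compared, sample quality weights, a replicate block and leaving out each library. Ratios within libraries, and leaving out each library from the fit with the library set, were added after the data were seen. Exact permutation tests (scipy 1.17.1) were two-sided, and 3 libraries against 3 cannot give a p below 0.1.

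The members, the 4 pathway lists (CSF1R signalling and regulators, GM-CSF receptor signalling and targets, beta common and IL-3 relatives, receptor kinase relatives of CSF1R with ligands), the 11 marker lists and the library sets were chosen with earlier results of these data known. Of each pathway list the genes past the threshold were named, at most 4 per comparison and direction, and otherwise the 2 of smallest p. The genes most like a member were the 5 (Csf1r) or 3 (other members) of smallest root mean square difference in mean-centred log2(TPM + 1). Some genes that these rules select are not reported here.

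The files hold no counts. Depth was estimated from the steps between low FPKM values, assuming reads of 75 bases, as 30900000 to 36200000 fragments. Between 49.9% and 59.8% of the low values fell within 0.08 of a whole read, so the estimates are approximate and no count test was run. No source used here names the animals behind the libraries, and p-values measure the spread between these libraries.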

Additional observations from a re-analysis of the deposited data

Results flagged for a closer look

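For 2 members the change in BF10 tumors differed from that of its parts added together, by the test of that difference. With the library set as a term, the change of BF10 against control exceeded the summed changes of IL-10-Fc and aCSF1R by 3.02 for Csf1r and by 2.54 for Csf2ra on the log2 scale (limma adjusted p = 0.0140 and 0.0314). Without the set neither passed the threshold, at 2.34 and 1.95. The contrast of Csf2ra passed in 4 of 12 fits that left out a library, and the 5 other members did not pass. Macrophage markers moved the same way in this contrast: 5 of 12 were called higher without the library set and 9 of 12 with it (limma), and their part in the values of Csf1r and Csf2ra was not tested.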

How the results depend on the processing

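Every alternative counted the members past the threshold against 0 in each comparison of the fit as reported. A pseudocount of 0.1, FPKM without rescaling, no filter and only the groups compared changed no direction and no call. With the library set as a term the counts were 2 (aCSF1R against control), 3 (BF10 against aCSF1R), 2 (IL-10-Fc against aCSF1R) and 2 (contrast of BF10 with its parts), and leaving out a library from that fit gave 1 to 2 for the first and for the last. In the 7 lower-sum libraries alone they were 2 (BF10 against aCSF1R) and 1 (IL-10-Fc against aCSF1R). With quality weights they were 3, 7 and 7 (aCSF1R, BF10 and IL-10-Fc against control), 2, 3 and 2 (BF10 and IL-10-Fc against aCSF1R, and the contrast). The 3 in aCSF1R against control were Csf1 (log2 change 2.64), Il34 (1.11) and Csf2 (-1.09). Csf1r and Csf2ra were not among them. However, the fit with quality weights called 9898, 8967 and 9274 genes against control and moved the median of all genes to 0.77, 0.70 and 0.69. Genes called in aCSF1R against control numbered 88 as reported, 312 with the library set, 34 in the lower-sum libraries, 4 with only the groups compared, 136 with median-of-ratios scaling and 0 with the replicate block. For BF10 and IL-10-Fc against aCSF1R the 114 and 84 genes became 437 and 330 with the set, 0 and 12 with only the groups compared, and 1 and 1 with the block. For the contrast the 45 became 188, 3 in the lower-sum libraries and 0 with the block.

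Log2 changes that turned sign were, with the library set, Csf2rb2 in IL-10-Fc against control (-0.10), and with median-of-ratios scaling, Il34 against control in BF10 (-0.0308) and IL-10-Fc (-0.011). In the lower-sum libraries alone Csf1 was at -0.052, -0.012 and -0.28 against control (aCSF1R, BF10, IL-10-Fc), -0.23 in IL-10-Fc against aCSF1R, 0.27 in BF10 against IL-10-Fc and 0.32 in the contrast. There Il34 was at -0.19 (BF10) and -0.022 (IL-10-Fc) against control, Csf1r at -0.053 in IL-10-Fc against control and Csf2 at -0.11 in the contrast. With quality weights Csf2rb and Csf2rb2 were at 0.36 and 0.75 in aCSF1R against control and -0.24 and -0.51 in the contrast, and Csf1 at -0.11 and -0.30 in BF10 and IL-10-Fc against aCSF1R and 0.19 in BF10 against IL-10-Fc. The cause was not tested.

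Replicate numbers are shared between groups but did not pair the samples: of 7 same-numbered pairs, 2 had deviations that correlated above 0.1 (range -0.663 to 0.417), and 0 libraries correlated best with their own number. With the replicate block, which leaves 2 residual degrees of freedom, aCSF1R against control was 0.013 (Csf1r), 0.31 (Csf2ra), 0.90 (Csf2rb) and 1.37 (Csf2rb2). BF10 against aCSF1R was -1.21 (Csf1), 0.46 (Csf2) and -0.50 (Csf2rb2), and IL-10-Fc against aCSF1R -1.28 (Csf1), -0.21 (Csf2rb) and -0.82 (Csf2rb2). BF10 against IL-10-Fc was 0.066 (Csf1), 0.21 (Il34) and 0.080 (Csf2), and the contrast -0.66 (Csf2rb) and -1.05 (Csf2rb2). The block called 0 members.

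Leaving out each library called 0 members, and these changes crossed 0: in aCSF1R against control Csf2rb -1.09 to 0.0693 and Csf2rb2 -0.71 to 0.49, in BF10 against aCSF1R Csf1 -0.69 to 0.97, Il34 -0.56 to 0.21 and Csf2 -0.55 to 0.27, in IL-10-Fc against aCSF1R Csf1 -0.54 to 0.88 and Csf2rb2 -0.00954 to 1.22, and in the contrast Csf2rb2 -0.34 to 1.13. In BF10 against IL-10-Fc they were Csf1r -0.34 to 0.83, Csf1 -0.59 to 0.58, Il34 -0.33 to 0.087, Csf2 -0.77 to 0.053, Csf2ra -0.19 to 1.11, Csf2rb -0.37 to 0.68 and Csf2rb2 -0.38 to 0.84. Depth limits Csf2, at a median of 54 estimated fragments, more than any other member.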
